A study of Mus musculus with 8 samples.

Results

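A set of 9 complement genes was followed in mesenchymal cells of mouse liver: the central component C3, the classical pathway genes C4b, C1ra and C1s1, the alternative pathway genes Cfb and Cfd, and the regulators Serping1, Cd55 and Cd59a. These 9 of 30395 listed genes were chosen by name from the complement system with their CPM over the 4 groups already known, so their levels and differences are given as a description and none is offered as independent evidence. The 8 libraries formed 4 groups of 2: Gli1+ peribiliary mesenchymal cells taken 5 d after ligation of the bile duct (BDL, which blocks bile flow), Gli1+ cells of uninjured liver, stellate cells 5 d after BDL, and stellate cells of uninjured liver. Every mouse, in all 4 groups, carried the genotype Gli1:CreER+/-; Ai9+/-, was of mixed strain (C57BL/6, SWR/J) and, per the labels, 8 weeks old. In such mice Gli1-driven CreER marks Gli1-expressing cells with the Ai9 fluorescent reporter. The sources used here do not give the sort gates, any inducing agent or whether the libraries of a group came from different animals, so each p-value reflects a spread among libraries that may be technical.

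Complement is a cascade of plasma proteins that tags surfaces for removal and can form a pore in membranes. The classical pathway starts when C1q with its proteases C1r and C1s cleaves C4 and C2, the lectin pathway starts from sugar-binding collectins and ficolins, and the alternative pathway amplifies C3 cleavage through factors B and D. All routes meet at C3. Hepatocytes make most plasma complement, adipocytes are known for factor D, macrophages for C1q, and fibroblasts and mesothelial cells are known to express several components.

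Levels are in CPM (reads per 1000000 reads of the library), which are comparable for 1 gene between libraries but not between genes of different length. Library totals ranged from 11261775 to 19180370 reads, so that 3 reads were worth 0.156 to 0.266 CPM. The 12 stellate cell markers summed to 174 to 443 CPM in Gli1+ and 14017 to 30426 CPM in stellate libraries, and the 12 portal fibroblast markers to 3237 to 10960 CPM in Gli1+ and 109 to 193 CPM in stellate libraries, so the markers separated the labelled populations. Gli1+ libraries also held transcripts of other cell types, with 6619 to 24795 CPM over 12 mesothelial markers and 3236 to 16109 CPM over 12 cholangiocyte markers, and uninjured stellate replicate 1 held 7976 CPM over 12 macrophage markers against 49.1 CPM in replicate 2. The 17 hepatocyte markers reached 23131 CPM in Gli1+ BDL replicate 2 and were between 84.5 and 3977 CPM elsewhere. In such bulk samples fewer cells of a type and less RNA per cell cannot be told apart.

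Of the 8 genes read in every library, C3 had the widest range. C3, whose protein is cleaved to C3b at the meeting point of the pathways (chromosome 17, 57203970 to 57228136, minus strand, GRCm38), had 3504 and 5032 CPM in Gli1+ cells after BDL, 6036 and 23184 CPM in uninjured Gli1+ cells, 116 and 254 CPM in stellate cells after BDL, and 5.20 and 5.79 CPM in uninjured stellate cells. The 4 groups did not overlap. In uninjured Gli1+ replicate 2 C3 ranked 1 among all genes of the library and made up 2.32% of its reads; it ranked 9, 15 and 17 in the other Gli1+ libraries, 577 and 1630 in stellate cells after BDL and 9454 and 10101 in uninjured stellate cells.

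Promoter sequence was available in the RefSeq table (GRCm38.p6) for 6 of the 9 genes. Shown, so that the C3 start region can be read beside others, are the 4 genes whose levels passed the limma threshold between uninjured Gli1+ and stellate cells (values further on): the 250 bases before the start of C3 (chr17:57228137-57228386, minus strand), C1s1 (chr6:124542360-124542609, minus strand), Cd55 (chr1:130462745-130462994, minus strand) and Cd59a (chr2:104095551-104095800, plus strand). Capitals mark matches to TTNNGNAA, a short form of the C/EBP motif, on either strand.
C3: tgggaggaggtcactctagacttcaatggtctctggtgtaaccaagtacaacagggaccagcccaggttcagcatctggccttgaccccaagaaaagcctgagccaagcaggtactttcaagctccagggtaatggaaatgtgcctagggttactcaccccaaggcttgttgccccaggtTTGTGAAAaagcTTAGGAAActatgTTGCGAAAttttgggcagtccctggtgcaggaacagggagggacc
C1s1: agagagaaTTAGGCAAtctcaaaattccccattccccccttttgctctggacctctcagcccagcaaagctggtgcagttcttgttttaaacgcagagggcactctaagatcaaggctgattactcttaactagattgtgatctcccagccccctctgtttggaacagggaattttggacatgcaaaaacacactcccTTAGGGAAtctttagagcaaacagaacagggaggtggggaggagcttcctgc
Cd55: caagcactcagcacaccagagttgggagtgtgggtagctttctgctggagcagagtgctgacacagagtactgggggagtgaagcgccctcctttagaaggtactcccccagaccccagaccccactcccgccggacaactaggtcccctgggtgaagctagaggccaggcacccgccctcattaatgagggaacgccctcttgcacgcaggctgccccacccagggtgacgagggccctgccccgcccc
Cd59a: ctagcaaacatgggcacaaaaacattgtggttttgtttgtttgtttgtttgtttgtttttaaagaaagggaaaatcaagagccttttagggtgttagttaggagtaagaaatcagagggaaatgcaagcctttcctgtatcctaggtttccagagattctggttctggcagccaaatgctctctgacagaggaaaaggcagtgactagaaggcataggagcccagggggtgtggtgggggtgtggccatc
C3 had 3 such matches, which did not overlap and lay 38 to 70 bases before the start, C1s1 had 2, and Cd55 and Cd59a had none. Another listed start of C1s1 had 1 match. Of the genes not shown, C1ra, which did not pass, also had 2 matches and Cfd had none. Among 32536 distinct RefSeq promoters, 36.8% held at least 1 match and 2.62% held 3 or more. TTCNNNGAA, a STAT motif (in 7.04% of promoters), the NF-kB motif (7.28%) and TATAAA (12.3%), searched on both strands, were not in these 4 windows. A match is a description of the letters and not a bound site.

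The fitted log2 difference of C3 was 10.83 ± 0.61 (SE) for Gli1+ minus stellate cells in uninjured liver and 4.60 ± 0.61 after BDL. Within stellate cells it was 4.74 ± 0.61 for BDL minus uninjured, a 33.7-fold ratio of mean CPM, and within Gli1+ cells -1.49 ± 0.61 (-2.46 without uninjured Gli1+ replicate 1 and -0.52 without replicate 2). The first 3 of these passed an adjusted p of 0.05 over all genes, and the response of Gli1+ cells did not. The stellate response stopped passing without any 1 of the 4 BDL libraries, after TMM scaling, without a filter on low values, with edgeR or limma-voom, or with the stellate groups fitted alone, while its value stayed between 4.18 and 5.29. The difference after BDL did not pass without either Gli1+ BDL library or without stellate BDL replicate 1, with values between 4.04 and 5.16.

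**Figure D1:**
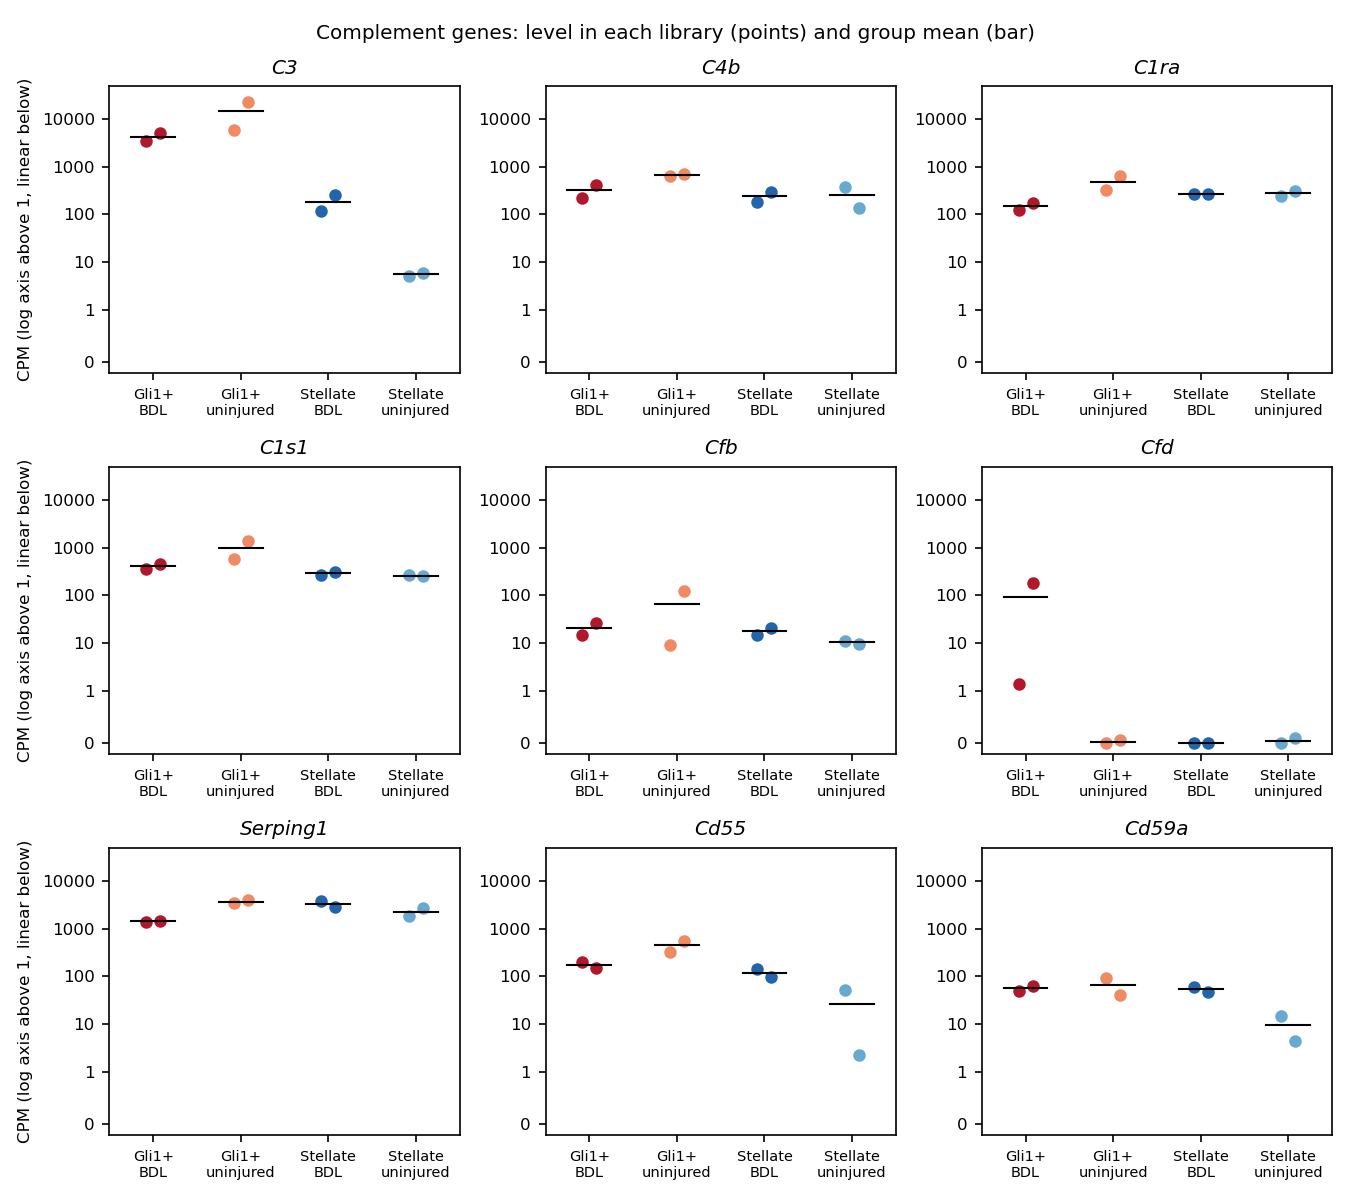
Level of each of the 9 complement genes in CPM (log axis above 1 CPM, linear below), with 1 point per library and a bar at the mean of the 2 libraries of a group. C3 spans from 5.20 CPM in an uninjured stellate library to 23184 CPM in an uninjured Gli1+ library, and Serping1 stays between 1425 and 4031 CPM in all 8 libraries.

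Markers of other cell types varied beside C3. The 12 mesothelial markers summed to 10278 and 6901 CPM in Gli1+ cells after BDL, 6619 and 24795 CPM in uninjured Gli1+ cells, 151 and 175 CPM in stellate cells after BDL, and 145 and 249 CPM in uninjured stellate cells. Of these, Krt19 is also in the cholangiocyte list, and Krt8 and Krt18 are keratins of bile duct cells too. The other 9 summed to 4155 and 4400.3 CPM in Gli1+ cells after BDL, 4578 and 22051 CPM in uninjured Gli1+ cells, 109 and 102 CPM in stellate cells after BDL, and 143 and 247 CPM in uninjured stellate cells. Slpi, a secreted protease inhibitor, was the most abundant, with 13199 CPM in uninjured Gli1+ replicate 2 and 1539 CPM in replicate 1, and Bnc1 was at 0 in stellate BDL replicate 1 and uninjured stellate replicate 2. In stellate libraries most of the sum of the 9 was Efna5, with 100 and 69.1 CPM after BDL and 137 and 236 CPM uninjured. Krt8, Krt18 and Krt19 summed to 42.5 and 73.6 CPM in stellate cells after BDL and 1.96 and 1.72 CPM in uninjured ones. The sums of the 17 hepatocyte markers were 3977 and 23131 CPM in Gli1+ cells after BDL, 1379 and 242 CPM in uninjured Gli1+ cells, 2462 and 2544 CPM in stellate cells after BDL, and 256 and 84.5 CPM in uninjured stellate cells; Pck1 alone was at 0, in uninjured stellate replicate 2. Alb, the most abundant hepatocyte marker, had 651 and 450 CPM in stellate cells after BDL and 62.0 and 8.13 CPM in uninjured ones. The 12 cholangiocyte markers summed to 183 and 763 CPM in stellate cells after BDL and 8.81 and 6.62 CPM in uninjured ones, with Cldn4 at 0 in all 4 stellate libraries. The 12 portal fibroblast markers summed to 109 and 188 CPM in stellate cells after BDL and 116 and 193 CPM in uninjured ones. Of these, Dpt had 22.9 and 21.7 CPM in stellate cells after BDL against 0.734 and 1.72 CPM in uninjured ones. Gas1 went the other way, with 18.1 and 56.2 CPM against 86.8 and 153 CPM. What part these cells had in the C3 values was not tested.

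**Figure D2:**
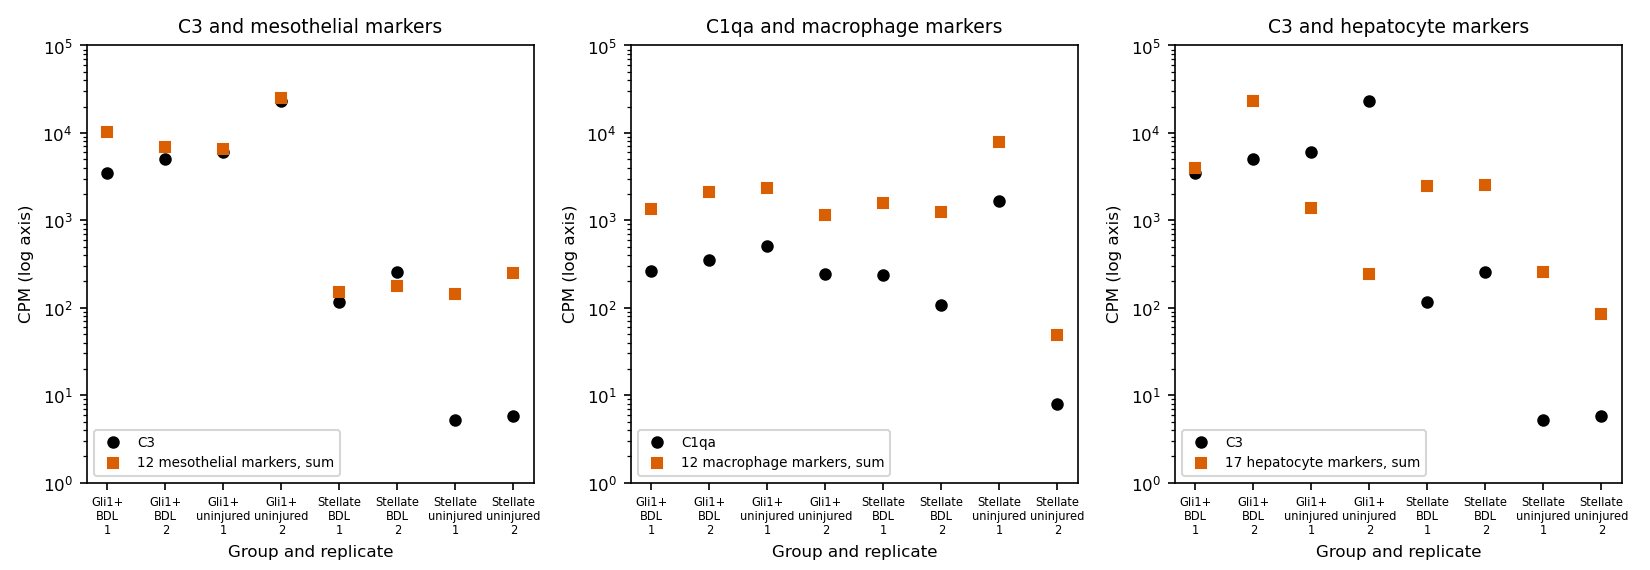
CPM (log axis) in each library of C3 beside the sum of 12 mesothelial markers (left), of the C1q gene C1qa beside the sum of 12 macrophage markers (middle), and of C3 beside the sum of 17 hepatocyte markers (right); squares are sums of markers and circles are complement genes. C3 is at 3504 CPM or more and the mesothelial sum at 6619 CPM or more in the 4 Gli1+ libraries, and C1qa and the macrophage sum are both highest in uninjured stellate replicate 1, at 1652 and 7976 CPM.

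The classical pathway genes had smaller ratios between group means than C3. C4b, the mouse C4 gene that supplies part of the C3 convertase (chromosome 17, 34728380 to 34743882, minus strand), had 223 and 419 CPM in Gli1+ cells after BDL, 627 and 696 CPM in uninjured Gli1+ cells, 182 and 297 CPM in stellate cells after BDL, and 377 and 134 CPM in uninjured stellate cells. Uninjured Gli1+ cells stood above all other libraries, and the 2 stellate groups overlapped. Its log2 difference was 1.55 ± 0.52 (SE) for uninjured Gli1+ minus stellate cells and -1.11 ± 0.52 for BDL minus uninjured in Gli1+ cells, neither past the threshold; the population difference passed without uninjured stellate replicate 1, at 2.29, and was 0.81 without replicate 2.

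C1ra and C1s1 encode the 2 serine proteases of the C1 complex. They lie tail to tail on chromosome 6 (124512405 to 124523443, plus strand, and 124530345 to 124542359, minus strand) with 6901 bases between them. C1ra had 121 and 173 CPM in Gli1+ cells after BDL, 332 and 632 CPM in uninjured Gli1+ cells, 272 and 274 CPM in stellate cells after BDL, and 245 and 317 CPM in uninjured stellate cells. Its lowest values were those of Gli1+ cells after BDL, which overlapped no other group.

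C1s1 had 360.3 and 467 CPM in Gli1+ cells after BDL, 569 and 1421 CPM in uninjured Gli1+ cells, 272 and 313 CPM in stellate cells after BDL, and 265 and 258 CPM in uninjured stellate cells. Gli1+ cells were above stellate cells in each state. The log2 difference of C1s1 for uninjured Gli1+ minus stellate cells was 1.78 ± 0.42 and passed, but 12 of 17 alternatives did not pass it, among them TMM scaling and leaving out any 1 library except uninjured Gli1+ replicate 1. For C1ra it was 0.71 ± 0.38 and did not pass. Per kilobase of merged exon the C1ra level was 0.354 and 0.389 of the C1s1 level in Gli1+ cells after BDL, 0.613 and 0.467 in uninjured Gli1+ cells, 1.05 and 0.919 in stellate cells after BDL, and 0.973 and 1.29 in uninjured stellate cells. This ratio was below 0.7 in every Gli1+ library and above 0.9 in every stellate library; since C1ra shares sequence with C1rb (given further on), the ratio is a ratio of counted reads.

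Each alternative pathway gene was uneven between the replicates of 1 group. Cfb, factor B, which carries the protease of the alternative C3 convertase (chromosome 17, 34856374 to 34862518, minus strand, 112491 bases from C4b), had 15.0 and 26.6 CPM in Gli1+ cells after BDL, 9.23 and 122 CPM in uninjured Gli1+ cells, 14.9 and 20.4 CPM in stellate cells after BDL, and 10.8 and 9.70 CPM in uninjured stellate cells. The 13.2-fold gap between the uninjured Gli1+ libraries exceeded every difference between group means, and uninjured Gli1+ cells overlapped every other group. Both BDL groups lay above uninjured stellate cells. The log2 difference for uninjured Gli1+ minus stellate cells was 1.66 ± 1.02 (SE) and did not pass; it passed at 3.45 without uninjured Gli1+ replicate 1 and was -0.14 without replicate 2. The library that was high in Cfb was also the one highest in C3, C1s1 and Slpi.

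Cfd, factor D, the protease that activates factor B (chromosome 10, 79890853 to 79892655, plus strand), came almost wholly from 1 library. It had 17 and 3065 reads in Gli1+ cells after BDL (1.37 and 183 CPM), 0 and 1 read in uninjured Gli1+ cells, 0 and 0 reads in stellate cells after BDL, and 0 and 2 reads in uninjured stellate cells. It passed the filter on low values only through the Gli1+ BDL libraries. No fold change is given, because 3 groups were under the level of 3 reads and a single library set the level in Gli1+ cells after BDL. Adipoq, an adipocyte gene chosen after the Cfd values were seen, had 10.9 CPM in that same library, Gli1+ BDL replicate 2, 0.0806 CPM in replicate 1, and 0 in the other 6. In a list of 8 adipocyte genes chosen then, the sums were 87.0 and 255 CPM in Gli1+ cells after BDL and between 22.7 and 205 CPM in the other 6 libraries, carried mostly by Fabp4 and Car3. The same library had the highest hepatocyte sum. The part of these cells in the Cfd value was not tested.

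Among the regulators, Serping1, the C1 inhibitor, which inactivates C1r and C1s (chromosome 2, 84765387 to 84775444, minus strand), had 1425 and 1494 CPM in Gli1+ cells after BDL, 3443 and 4031 CPM in uninjured Gli1+ cells, 3838 and 2882 CPM in stellate cells after BDL, and 1878 and 2748 CPM in uninjured stellate cells. It was among the 49 most abundant genes of every library. Gli1+ cells after BDL were below all other libraries, and stellate cells after BDL were above both uninjured stellate libraries. The log2 differences were -1.35 ± 0.36 (SE) for BDL minus uninjured in Gli1+ cells, 0.55 ± 0.36 for BDL minus uninjured in stellate cells and -1.19 ± 0.36 for Gli1+ minus stellate cells after BDL. None passed the limma threshold; DESeq2 passed the first and the last, and limma-voom the last.

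Cd55, decay-accelerating factor, a membrane protein that takes apart C3 convertases (chromosome 1, 130439027 to 130462744, minus strand), had 201 and 150.4 CPM in Gli1+ cells after BDL, 331 and 567 CPM in uninjured Gli1+ cells, 144 and 96.9 CPM in stellate cells after BDL, and 51.4 and 2.19 CPM in uninjured stellate cells. No groups overlapped, in the order uninjured Gli1+, Gli1+ BDL, stellate BDL and uninjured stellate. The 2 uninjured stellate libraries differed 23.5-fold, and the higher of them was the one with the macrophage markers. The log2 difference for uninjured Gli1+ minus stellate cells was 5.07 ± 1.05 (SE) and passed; it was 7.09 without uninjured stellate replicate 1 and 3.05 without replicate 2, and did not pass without either uninjured Gli1+ library, with edgeR, without a filter on low values or with the groups fitted alone. For BDL minus uninjured in stellate cells it was 3.21 ± 1.05 and did not pass, except without uninjured stellate replicate 1, at 5.22; without replicate 2 it was 1.19.

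Cd59a, a membrane inhibitor of the terminal pore (chromosome 2, 104095801 to 104115354, plus strand), had 49.8 and 63.6 CPM in Gli1+ cells after BDL, 92.4 and 41.4 CPM in uninjured Gli1+ cells, 58.8 and 47.6 CPM in stellate cells after BDL, and 14.6 and 4.38 CPM in uninjured stellate cells. The other 3 groups overlapped each other, and uninjured stellate cells lay below all of them. The log2 difference was 2.78 ± 0.61 (SE) for uninjured Gli1+ minus stellate cells, which passed, and 2.56 ± 0.61 for BDL minus uninjured in stellate cells, which passed only with DESeq2 or without uninjured stellate replicate 1 (3.32), and was 1.79 without replicate 2. The population difference did not pass without uninjured Gli1+ replicate 1, uninjured stellate replicate 2, Gli1+ BDL replicate 2 or either stellate BDL library, nor with edgeR, limma-voom, no filter on low values or the groups fitted alone.

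**Figure D3:**
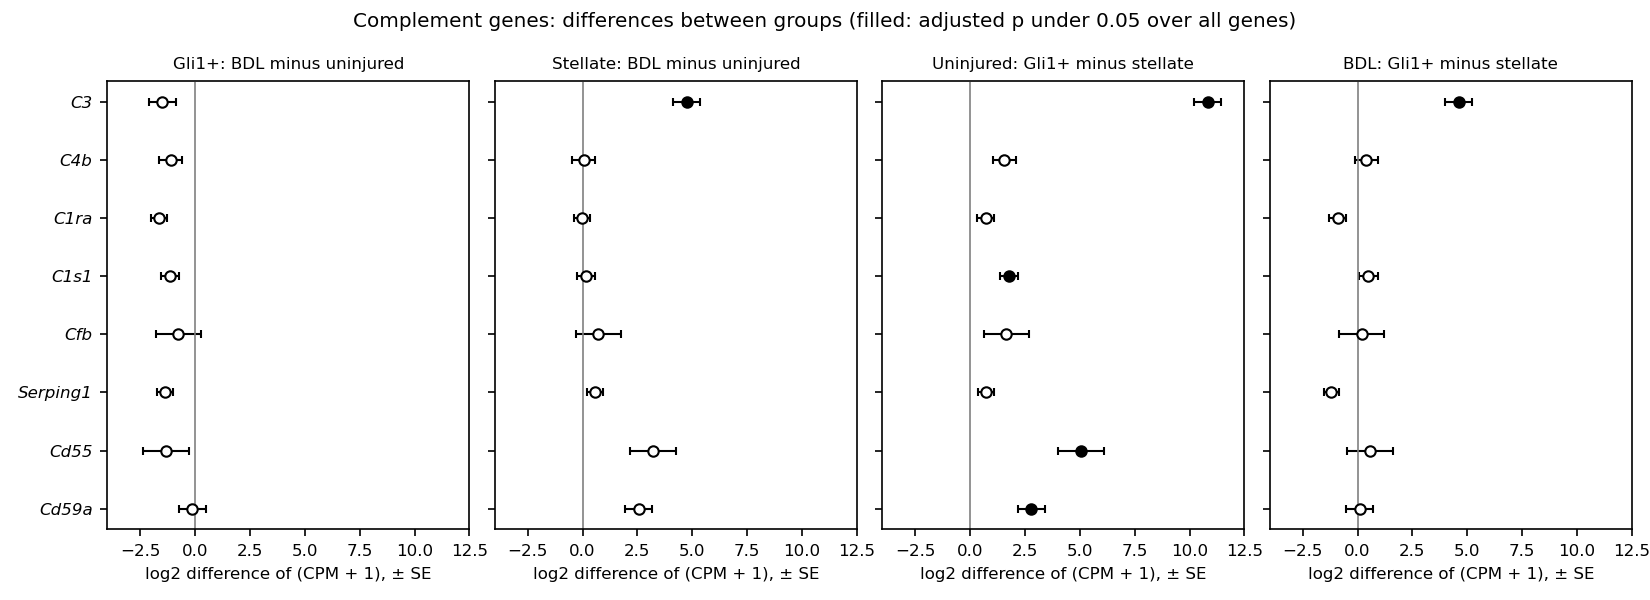
Fitted log2 differences of CPM + 1 for 8 of the 9 genes (without Cfd) in the 4 comparisons, with bars of 1 SE from the model over all 8 libraries; filled points passed an adjusted p of 0.05 over all 16446 genes tested. In uninjured liver C3, C1s1, Cd55 and Cd59a are filled, and in the response of Gli1+ cells to BDL all points are open.

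Across the 9 genes, all tested, the comparisons gave the following counts by limma with Benjamini-Hochberg adjustment over all genes. In uninjured liver 4 were higher and 0 lower in Gli1+ cells, where 8.06% of all genes were called higher and 3.02% lower. After BDL 1 was higher and 0 lower in Gli1+ cells, where 4.44% of all genes were called higher and 2.36% lower. In stellate cells 1 was higher and 0 lower after BDL, with 0.225% of all genes called higher and 0% lower. In Gli1+ cells 0 of 9 were called after BDL, with 0% of all genes called in either direction. An unadjusted limma p under 0.05 was found for 5 of 9 and 1812 of 16446 genes. The 5 were C3, C1ra, C1s1 and Serping1, all below 0, and Cfd, above 0 with its level set by 1 library. By edgeR and limma-voom also 0 of 9 were called, and DESeq2 called 2 (C1ra and Serping1). Because the members were chosen with these values known, nothing is read from these counts.

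The 2 populations were also compared in their responses. Leaving out Cfd, the log2 response to BDL was below 0 for 8 of 8 genes in Gli1+ cells, where 56.1% of all genes were above 0, and above 0 for 7 of 8 in stellate cells, where 60.8% of all genes were above 0. In stellate cells the response of C1ra was -0.03. The sign turned in at least 1 alternative for Cfb and Cd59a in Gli1+ cells and for C4b, C1ra and C1s1 in stellate cells. The difference of responses (Gli1+ minus stellate) was -6.23 ± 0.87 (SE) for C3, -4.52 ± 1.48 for Cd55, -2.69 ± 0.87 for Cd59a and -1.90 ± 0.51 for Serping1. By limma 0 of 9 passed, with 0.0122% of all genes called; 5 of 9 and 1230 of 16446 genes had an unadjusted p under 0.05, edgeR and limma-voom also called 0 of 9, DESeq2 called 2 (C3 and Serping1), and without uninjured stellate replicate 1 limma called Cd55. The median log2 difference of all genes was 0.12 in Gli1+ and 0.19 in stellate cells for BDL minus uninjured, and 0.32 uninjured and 0.23 after BDL for Gli1+ minus stellate cells, against 0.08, 0.11, 0.14 and 0.09 after TMM scaling, which CPM does not include.

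Per kilobase of merged exon, which allows genes to be ranked within a group, C3 and Serping1 led in Gli1+ cells, at 830 and 628 CPM per kb after BDL and 2841 and 1607 CPM per kb uninjured. In uninjured Gli1+ replicate 1 Serping1 was above C3, at 1481 against 1174 CPM per kb, so the uninjured order rests on replicate 2. In stellate cells Serping1 led in both states, at 1445 CPM per kb after BDL and 995 CPM per kb uninjured, while C3 stood at 36.0 CPM per kb after BDL and 1.07 CPM per kb uninjured. The 9 genes together took up 0.590 and 0.801% of reads in Gli1+ cells after BDL, 1.14 and 3.07% in uninjured Gli1+ cells, 0.490 and 0.418% in stellate cells after BDL, and 0.285 and 0.348% in uninjured stellate cells. C3 made up between 52.8 and 75.5% of that sum in Gli1+ libraries and at most 6.06% in stellate libraries.

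How far reads of these genes can be told from those of other genes was measured on GENCODE vM21 transcripts. C3, Cfd and Serping1 shared no stretch of 50 bases with another gene. C4b shared 34.6% of its stretches with C4a, C1ra 48.0% with C1rb, C1s1 21.8% with C1s2, Cd55 8.00% with Cd55b and Cd59a 3.87% with Cd59b, and how the authors treated reads that match several genes is not given in the sources used here. These copies had few reads: C4a at most 5.93 CPM, C1s2 at most 4.59 CPM, Cd59b at most 4.26 CPM and Cd55b at most 0.680 CPM, while C1rb had 15.1 CPM in uninjured stellate replicate 2 and at most 0.628 CPM elsewhere. Of the exon bases of Cfb 79.5% also lie in Gm20547, an annotated same-strand gene that spans it and that has no row in the files; reads there can be left uncounted, so the level of Cfb is uncertain. Of C1s1 18.4% of exon bases, and of Cd55 2.10%, lie opposite an antisense gene, and the strand setting is not given.

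The rest of the complement system was examined as a list of 50 other genes, of which 49 were listed and 46 tested. In uninjured liver 7 were higher in Gli1+ cells (C1rl, Cfi, Cfhr2, C7, C4bp, Clu and Cd93). In the same comparison 5 were lower (Fcna, Colec10, Colec11, Masp1 and Cpb2). Of all genes 8.06% were called higher and 3.02% lower. The median log2 difference was 0.54 against 0.32 for all genes. After BDL 2 were higher and 4 lower (median 0.79 against 0.23), where 4.44% of all genes were called higher and 2.36% lower. In stellate cells 1, Cd93, was higher after BDL (median 1.07 against 0.19), where 0.225% of all genes were called higher. In Gli1+ cells 0 were called after BDL (median 0.63 against 0.12), with 0% of all genes called. For that response DESeq2 called 8 of the list and 406 of all genes, and edgeR called 0 of either.

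Other classical genes had 1 call among 7 tested, in uninjured liver, where 8.06% of all genes were called higher in Gli1+ cells. C1rl, a C1r-like protease, was higher in uninjured Gli1+ cells, with 43.8 and 64.9 CPM against 9.79 and 14.1 CPM in uninjured stellate cells (limma adjusted p = 0.0253). C2, which pairs with C4 in the convertase, had 208 and 227 CPM in uninjured Gli1+ and 117 and 52.0 CPM in uninjured stellate cells and did not pass (adjusted p = 0.0942). The C1q genes went with the macrophage markers: C1qa had 502 and 241 CPM in uninjured Gli1+ cells and 1652 and 7.98 CPM in uninjured stellate cells, while the 12 macrophage markers summed to 2370.3 and 1165 CPM in uninjured Gli1+ cells and 7976 and 49.1 CPM in uninjured stellate cells. The part of macrophages in these values was not tested.

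Most lectin pathway genes were lower in Gli1+ cells. Of 7 tested genes 4 passed in both states: the ficolin Fcna, the collectins Colec10 and Colec11, and the protease Masp1. Colec10 and Colec11 are also among the 12 stellate cell markers summed above, so their direction is not separate from that sum. Among all genes 3.02% were called lower in Gli1+ cells in uninjured liver and 2.36% after BDL. Colec10 had 31.1 and 20.1 CPM in uninjured Gli1+ cells against 1584 and 1826 CPM in uninjured stellate cells (log2 difference -6.03 ± 0.43 SE, limma adjusted p = 0.000228). Colec11 had 135 and 29.5 CPM in uninjured Gli1+ cells against 3258 and 4608 CPM in uninjured stellate cells (adjusted p = 0.00149). Masp1 had 0.444 and 5.53 CPM in uninjured Gli1+ cells against 225 and 1197 CPM in uninjured stellate cells (-7.41 ± 1.01, adjusted p = 0.00277). Mbl1 and Mbl2, the mannose-binding lectins, had 0 reads in all 4 uninjured libraries and 5.64 and 43.3 CPM of Mbl1 in Gli1+ cells after BDL, with the higher value in the library of highest hepatocyte sum.

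Among alternative and terminal genes Cfi, Cfhr2 and C7 were called. Cfi, factor I, which inactivates C3b, had 113 and 155 CPM in Gli1+ cells after BDL against 10.5 and 15.9 CPM in stellate cells after BDL, and 9.95 and 18.5 CPM in uninjured Gli1+ cells against 0 and 0.0521 CPM in uninjured stellate cells. Cfi passed in both (limma adjusted p = 0.0214 and 0.00804). Cfhr2 had 83.4 and 15.7 CPM in uninjured Gli1+ and 0.550 and 1.72 CPM in uninjured stellate cells (adjusted p = 0.0255). Of the terminal genes only C7, a component of the pore, passed, with 69.5 and 111 CPM in uninjured Gli1+ and 0.183 and 2.35 CPM in uninjured stellate cells (adjusted p = 0.00354). Hc, the C5 gene, had 10.1 and 117 CPM in Gli1+ cells after BDL against 3.02 and 0.0571 CPM in uninjured Gli1+ cells. Of the 7 terminal genes 5 (Hc, C8a, C8b, C8g and C9) were highest in Gli1+ BDL replicate 2, the library with 23131 CPM of hepatocyte markers, whose part in these values was not tested. The median log2 response of the 7 genes was 2.79 in Gli1+ cells, against 0.12 for all genes, and 2.33 in stellate cells, against 0.19, with no call by limma in either.

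Among regulators Clu, clusterin, an inhibitor of the pore, had 15714 and 6039 CPM in Gli1+ cells after BDL against 563 and 461 CPM in stellate cells after BDL (log2 difference 4.26 ± 0.53 SE, limma adjusted p = 0.00314). It had 6415 and 3092 CPM in uninjured Gli1+ cells against 819 and 984 CPM in uninjured stellate cells (2.31 ± 0.53, adjusted p = 0.0255). The cholangiocyte sum was 16109 and 7821 CPM in Gli1+ cells after BDL and 4326 and 3236 CPM in uninjured Gli1+ cells, and its part in the Clu values was not tested. C4bp, which binds C4b, was higher in uninjured Gli1+ cells, with 222 and 44.5 CPM against 0.122 and 0.209 CPM in uninjured stellate cells (adjusted p = 0.00191). Cr1l, the mouse membrane regulator also called Crry, lay between 39.0 and 118 CPM in every library and was not called. Among receptors Cd93, a membrane protein once described as a C1q receptor and abundant in endothelium, rose in stellate cells after BDL, with 109 and 100.5 CPM against 0.0612 and 0.209 CPM in uninjured stellate cells (adjusted p = 0.00848). This call was lost with limma-voom, with the stellate groups fitted alone and without any 1 of the 4 BDL libraries. The endothelial list of 12 markers came to 4568 and 3551 CPM in stellate cells after BDL and 2190 and 2444 CPM in uninjured ones. Without Eng, its most abundant gene, the other 11 summed to 2757 and 2018 CPM after BDL and 620 and 132 CPM in uninjured stellate cells, and Ptprb had 462 and 398 CPM after BDL against 22.8 and 3.81 CPM in uninjured ones. The part of endothelial cells in the Cd93 value was not tested.

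**Figure D4:**
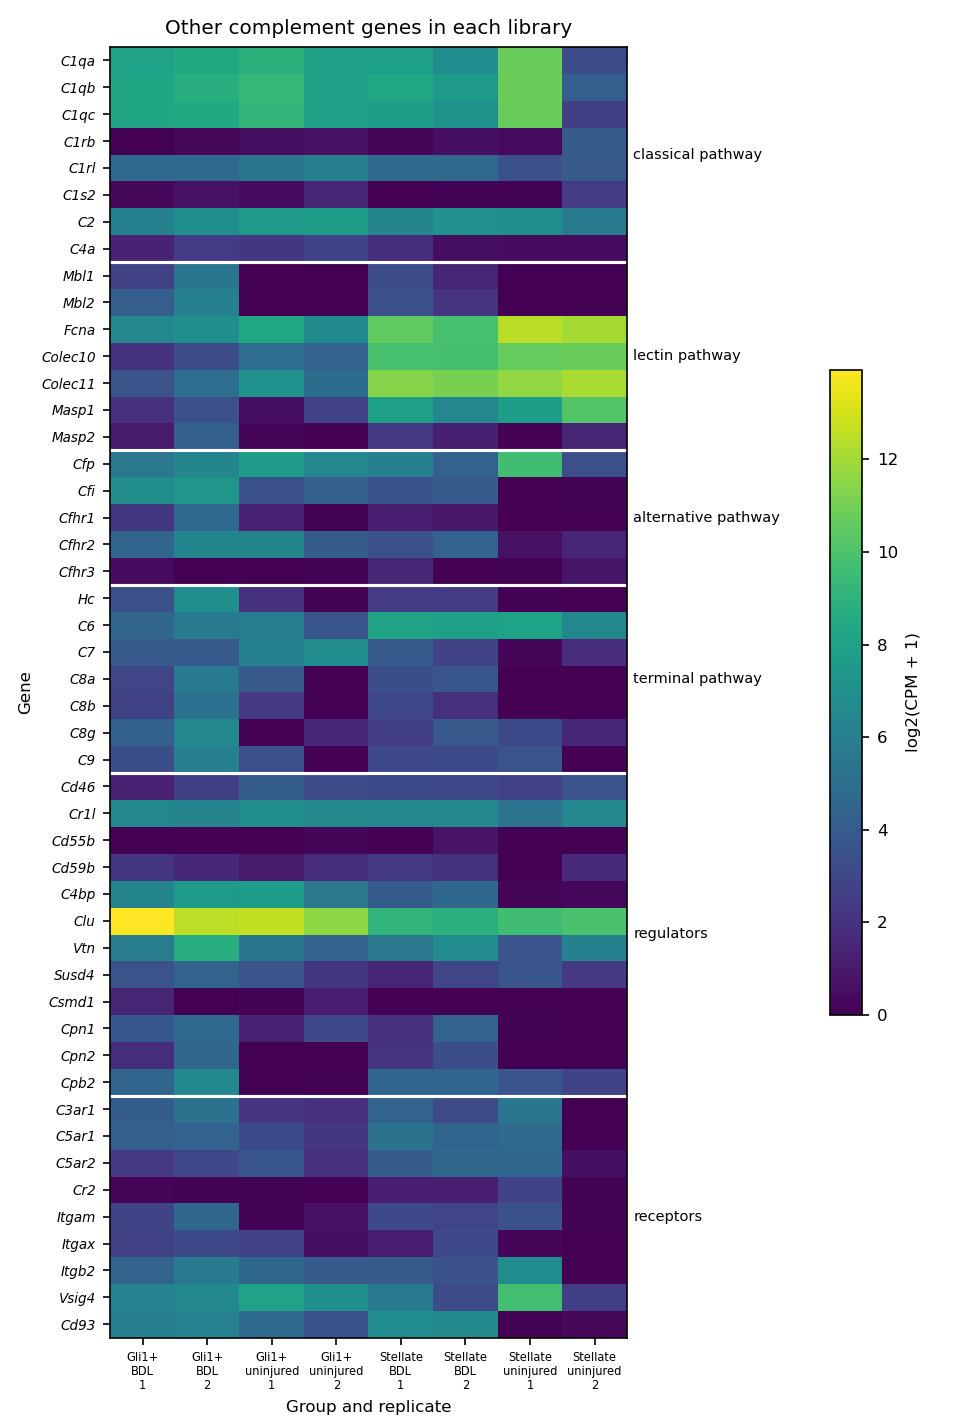
Levels as log2(CPM + 1) of 48 other complement genes (rows, grouped by pathway) in the 8 libraries (columns, by group and replicate). Lectin genes such as Colec10 are bright in the 4 stellate libraries, Clu in the 4 Gli1+ libraries, and the C1q genes in uninjured stellate replicate 1.

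A further list of 16 genes, all tested, held cytokine receptors and transcription factors known to induce complement genes. It also held Nfkbia, the gene of an NF-kB inhibitor. In uninjured liver 1, the oncostatin M receptor Osmr, was higher in Gli1+ cells and 2, among them the interleukin-1 receptor Il1r1, were lower. Of all genes 8.06% were called higher and 3.02% lower (median 0.12 for the list against 0.32 for all genes). After BDL 0 were higher and 4 lower in Gli1+ cells (median -0.92 against 0.23), where 4.44% of all genes were called higher and 2.36% lower. Cebpd, a C/EBP factor, had 269 and 107 CPM in Gli1+ cells after BDL against 1501 and 726 CPM in stellate cells after BDL (limma adjusted p = 0.0192), and the shared cytokine receptor Il6st had 198 and 335 CPM in Gli1+ cells after BDL against 1527 and 1715 CPM in stellate cells after BDL (adjusted p = 0.00625). No gene of the list passed in the response to BDL of either population by limma.

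The genes most like each member over the 8 libraries were found by Pearson correlation of log2(CPM + 1) among 9874 genes with at least 20 CPM in a group. For C3 they were Bicc1 and Cav1 (r = 0.994 and 0.993), for C4b Phc1 and Esrra (0.988 and 0.975), for C1ra Akt2 and Nsmaf (0.971 and 0.927), and for C1s1 Apol11b and Lipe (0.993 and 0.968). For Cfb they were Acsl4 and Sod2 (0.924 and 0.904), for Serping1 Rabl6 and Pcolce (0.925 and 0.902), for Cd55 Ampd3 and Gda (0.989 and 0.978), and for Cd59a Map1a and Cmtm8 (0.991 and 0.990). For Cfd they were Hamp2 and Upp2 (0.984 and 0.983), both liver-expressed genes with their highest value in Gli1+ BDL replicate 2, at 63.8 and 71.4 CPM. The 8 points differ in cell population, state and library depth, and the values are a description.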

How the data were processed

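RNA-seq libraries of sorted liver cells were made with SMART-Seq2, per the labels' protocols. The deposited values are CPM, 1 column per library, per the file headers. FastQC, STAR 2.5.2b, featureCounts, DESeq2 and mm10 appear in the submitters' processing notes without roles. Whole reads were recovered (100% of values within 0.1 read). Of 30395 identifiers 30233 matched GENCODE vM21 (GRCm38).

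limma-trend (limma 3.58.1, R 4.3.3) was fitted to log2(CPM + 1) of all 8 libraries with 4 group means, on the 16446 genes that reached 1 CPM in 2 or more libraries, adjusted by Benjamini-Hochberg over all genes (threshold 0.05). This scale understates changes of low genes. Alternatives included edgeR 4.0.16, DESeq2 1.42.0, limma-voom, TMM scaling and leaving out each library. The members and lists were chosen with earlier results of these data known. Named were all members, their close copies, up to 3 called genes of largest difference with at least 5 CPM in each comparison and direction from other complement lists, up to 2 called inducers, and the 2 genes most like each member. C1rl, C2, C1qa, Fcna, Mbl1, Mbl2, Cpb2, Hc and Cr1l were named after their values were seen. Some genes of the lists are counted but not reported here by name. Floors in reads cover counting error only.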

Additional observations from a re-analysis of the deposited data

How the results depend on the processing

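Counts are given by comparison. In Gli1+ cells after BDL limma called 0 genes and 0 members; without a filter on low values it called 127 genes, with at least 5 CPM 3, and DESeq2 called 406 genes and 2 members. Leaving out 1 library gave 0 to 5 genes and 0 members. In stellate cells after BDL 37 genes and 1 member were called; no filter gave 6 genes and 0 members, TMM scaling 23 and 0, edgeR 62 and 0, DESeq2 1006 and 2, limma-voom 0 and 0, and the 2 groups alone 0 and 0. Leaving out 1 library gave 0 to 219 genes and 0 to 3 members. In uninjured liver 1822 genes and 4 members were called; no filter gave 810 and 1, DESeq2 2996 and 4, edgeR 1217 and 1, limma-voom 1509 and 2, and the 2 groups alone 0 and 0. Leaving out 1 library gave 1022 to 1808 genes and 2 to 4 members. Between populations after BDL 1118 genes and 1 member were called, with 621 genes by edgeR, 592 genes and 2 members by limma-voom, 3 members by DESeq2, and 145 to 1375 genes and 0 to 1 members without 1 library. For the difference of responses 2 genes and 0 members were called; no filter and limma-voom gave 0 genes, edgeR 11, DESeq2 389 genes and 2 members, and leaving out 1 library 0 to 33 genes and 0 to 1 members. For Gli1+ minus stellate cells after BDL, the 2 groups alone gave 1487 genes and 1 member. The causes of these changes in counts were not tested.

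Replicates of the same number deviated little together (correlations between -0.11 and 0.11). With so few libraries this cannot show whether the numbers pair the samples, and the labels do not say. With a replicate block 18 genes were called in stellate cells after BDL and 0 for the difference of responses; counts of members stayed within 1.5 times. Cfd has no value in 3 alternatives, where it failed the filter. With 2 libraries a group, the fit leaves 4 residual degrees of freedom for each gene. The SE and p-values of limma-trend use a spread moderated with that of all genes tested.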
